A study of Mus musculus and Homo sapiens with 30 samples.

Results

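The genes described here are 10 mouse genes through which a cell can sense signals from fat tissue. They include the leptin receptor (Lepr), the adiponectin receptors (Adipor1 and Adipor2) and receptor chains of the interleukin 6 (IL-6) family (Il6st, Il6ra and Osmr). The others are the tumour necrosis factor receptor Tnfrsf1a, the interleukin 1 receptor Il1r1, the lipopolysaccharide receptor Tlr4 and Socs3. Socs3 is an intracellular feedback inhibitor that IL-6 and leptin signalling induce. The 10 genes were chosen by name for these roles, with earlier results of these data known. All 10 were found among the 56980 gene IDs of the mouse count table. RNA was sequenced from E0771, a mouse mammary cancer line, and NMuMG, a line of mouse mammary gland epithelium, although the sample labels list both as breast cancer. Cells of each line grew for 36 h in DMEM with 10% fetal bovine serum and were then treated for 16 h with either the same medium (control) or medium of which 50% was replaced by the secretome, the conditioned medium, of lean or obese inguinal adipocytes, with 3 libraries per line and medium and 18 in all. NMuMG medium also held 10 mcg/ml insulin and 4.5 g/L glucose in all 3 groups, so line and medium cannot be told apart. The control groups received no secretome, the species of the adipocytes is not given in the labels, and nothing in the labels says that replicates were separate cultures, so p-values measure the spread between these libraries, which may be technical.

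Fat tissue releases leptin and adiponectin, hormones called adipokines, together with inflammatory cytokines. The response of a cell depends in part on which of their receptors it makes. Leptin and the IL-6 family act through receptors coupled to JAK kinases and STAT transcription factors, and SOCS3 binds these receptors and JAKs to limit the signal. Tumour necrosis factor, interleukin 1 and lipopolysaccharide act mainly through NF-kB, while adiponectin receptors are linked to AMPK and to ceramide breakdown.

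Total counts ranged from 22929035 to 31094119 per library in E0771 and from 23966897 to 29686456 in NMuMG. Levels are given as CPM (read counts scaled to a common library total, with TMM factors over the 18 libraries), and levels of different genes are compared only as CPM per kb of exon. Markers of mammary epithelium summed to between 6994 and 8336 CPM in NMuMG and to between 219.7 and 248.1 CPM in E0771. Krt8 led in both lines, followed in NMuMG by Krt18 and Krt19, which were at or near 0 in E0771. Cldn7 was at or near 0 in E0771, and Cldn7 and Elf5 were at 0 in all NMuMG libraries. Leukocyte markers summed to at most 6.03 CPM in any library. Lyz2 and Cd68 led in E0771, where 2 of the 10 markers had a mean of at least 1 CPM in each group. Cd68 led in NMuMG, where 1 marker had such a mean. Itgam and Tyrobp were at 0 throughout, and the adipocyte hormone gene Lep was at 0 in all 18 libraries. Several marker lists moved with the medium. The adipocyte list summed to between 8.437 and 12.18 CPM in E0771, and in NMuMG, led by Pparg, Lipe and Cidec, to 28.59 to 31.08 CPM in control, 29.67 to 34.26 in obese and 34.73 to 39.46 in lean libraries. The epithelial sum in NMuMG was also highest in lean medium, at 8109 to 8336 CPM against 7335 to 7797 in control and 6994 to 7398 in obese libraries. The endothelial sum in E0771 was lowest there, at 2.045 to 2.952 CPM against 3.329 to 4.308 and 3.136 to 5.397. The fibroblast list, led by Col1a1, moved with the medium in E0771, where its sum was 925.7 to 1035 CPM in control, 705.9 to 939.7 CPM in obese and 406 to 429.2 CPM in lean libraries. In NMuMG that sum was 5.995 to 6.641, 4.07 to 5.074 and 3.466 to 3.67 CPM. The part of these lists in the receptor results was not tested, and in bulk RNA fewer cells of a type and less RNA per cell cannot be told apart.

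To show the regulatory sequence next to 3 of these genes, the 250 bases upstream of the RefSeq start (mouse build GRCm38.p6, 5′ to 3′ on the gene's strand) are printed for Socs3 and Il6ra, which fell in lean secretome in both lines, and for Tnfrsf1a, which moved in opposite directions. Capitals mark matches to TTCNNNGAA, the palindromic core bound by STAT factors, which reads the same on both strands. The windows lie at chr11:117969367-117969616 (minus strand, Socs3), chr3:89913197-89913446 (minus strand, Il6ra) and chr6:125349473-125349722 (plus strand, Tnfrsf1a).
Socs3: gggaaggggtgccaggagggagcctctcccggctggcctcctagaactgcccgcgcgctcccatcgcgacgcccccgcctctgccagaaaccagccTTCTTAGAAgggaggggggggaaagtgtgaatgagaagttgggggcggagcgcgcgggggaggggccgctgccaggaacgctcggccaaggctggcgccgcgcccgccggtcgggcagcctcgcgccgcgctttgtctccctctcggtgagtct
Il6ra: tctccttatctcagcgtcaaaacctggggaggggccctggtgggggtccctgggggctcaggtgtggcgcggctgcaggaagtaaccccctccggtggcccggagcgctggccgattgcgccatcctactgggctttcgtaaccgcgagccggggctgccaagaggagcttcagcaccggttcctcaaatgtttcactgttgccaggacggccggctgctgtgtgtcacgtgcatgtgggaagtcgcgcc
Tnfrsf1a: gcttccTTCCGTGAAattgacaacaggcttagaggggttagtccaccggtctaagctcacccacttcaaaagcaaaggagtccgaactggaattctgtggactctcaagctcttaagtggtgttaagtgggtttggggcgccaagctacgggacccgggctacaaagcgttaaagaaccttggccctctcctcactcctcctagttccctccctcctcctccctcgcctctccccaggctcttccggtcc
The Socs3 match, TTCTTAGAA, begins 154 bases before the start and the Tnfrsf1a match, TTCCGTGAA, begins 244 bases before it. Of 32851 mouse windows of this length, 7.02% hold this motif. A match describes letters and not a bound site, and the motif was chosen with the gene results and the Socs3 window known. The 250-base windows of the other members in the RefSeq table held no match to it.

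Both lines in control medium carried most of these receptors at clear levels. E0771 held more Il6ra and Tnfrsf1a than NMuMG, and NMuMG held more Il1r1 than E0771. The median absolute log2 difference of the 10 genes between lines was 0.31, beside 0.74 over all genes tested. Between the lines in control medium 7 of the 10 genes differed (4 higher and 3 lower in NMuMG), where 80.5% of the 16529 genes tested differed (43.4% higher, 37.1% lower), by edgeR's quasi-likelihood test with Benjamini-Hochberg adjustment at 0.05. The libraries of the lines did not overlap for 7 genes, as for 82.1% of all genes. Both counts include Lepr, which passed the filter on low counts only through its NMuMG libraries. In E0771 the order per kb ran from Tnfrsf1a (78.05 ± 4.63 CPM per kb, SD, n = 3) through Adipor2 (34.54 ± 1.21), Adipor1 (23.42 ± 1.36), Socs3 (14.9 ± 0.576), Il6ra (12.05 ± 0.185) and Il6st (8.928 ± 0.395) to Tlr4 (1.532 ± 0.208), Il1r1 (0.488 ± 0.113), Osmr (0.275 ± 0.0469) and Lepr (0.0241 ± 0.0149). In NMuMG it ran from Tnfrsf1a (35.95 ± 1.12 CPM per kb) through Adipor1 (29.02 ± 0.815), Adipor2 (27.79 ± 0.247), Socs3 (16 ± 0.628), Il6st (11.07 ± 0.381) and Il1r1 (6.404 ± 0.083) to Il6ra (1.538 ± 0.14), Tlr4 (1.366 ± 0.0746), Osmr (0.309 ± 0.0142) and Lepr (0.108 ± 0.0349). The libraries of the neighbours Il6ra and Tlr4 overlapped in NMuMG, and those of the other neighbours in both orders did not.

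**Figure D1:**
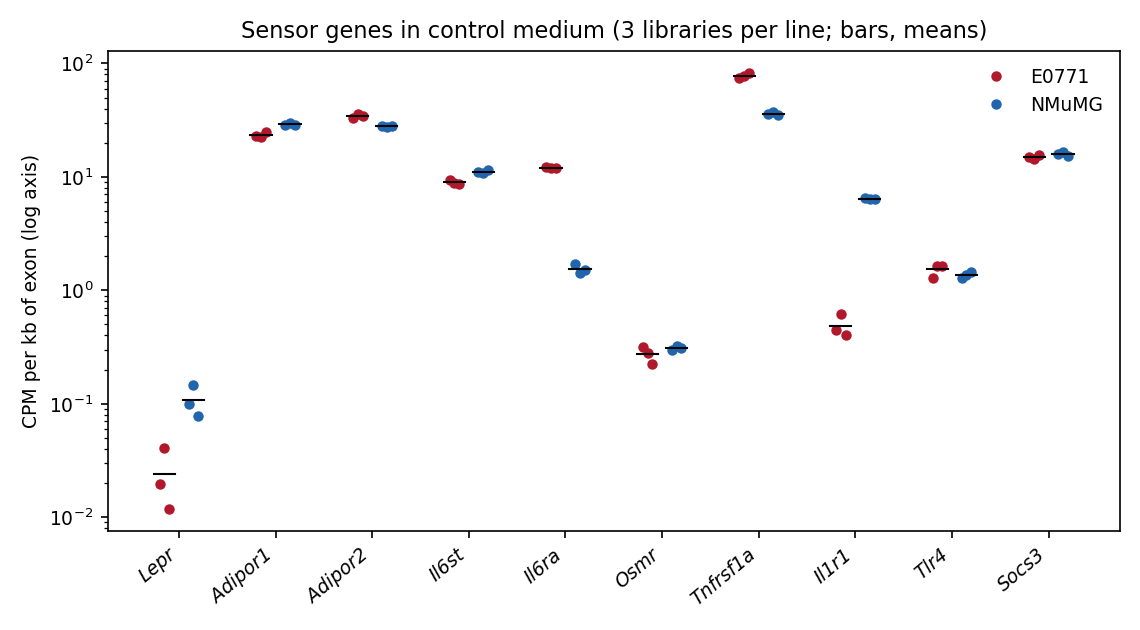
Level of each gene in control medium as CPM per kb of exon (log axis), 1 point per library (3 per line) with the mean as a bar. Il6ra sits near 12.05 in E0771 and 1.538 in NMuMG, and Il1r1 near 0.488 and 6.404.

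In E0771 the share of the genes called for lean secretome was near that of all genes, and in NMuMG it was above that share. The genes were chosen with earlier results of these data known, so a share above that of all genes carries no test. The NMuMG calls for lean over obese included Tlr4, which did not pass with DESeq2 (adjusted p = 0.0879). None was called for obese secretome against control medium, where few of all genes were. Over obese secretome, lean secretome changed 5 of the 9 genes tested in E0771 (1 higher, 4 lower), where 52.7% of all tested genes changed (25.8% higher, 26.9% lower), and 8 of 10 in NMuMG (3 higher, 5 lower), where 35% did (17.6% higher, 17.4% lower). Over control medium, a comparison that shares the lean libraries, it changed 6 of 9 in E0771 (2 higher, 4 lower), beside 56.3% of all genes (27.3% higher, 29% lower), and 8 of 10 in NMuMG (3 higher, 5 lower), beside 38.2% of all genes (19.1% higher, 19.1% lower). Lean and obese libraries did not overlap for 5 genes in E0771 (60.5% of all genes) and 8 in NMuMG (45.3%), and lean and control libraries for 5 (61.4%) and 8 (47.8%). Obese over control gave 0 calls in both lines by edgeR's test and 0 by DESeq2, with 1 gene under an unadjusted p of 0.05 in each line (Tnfrsf1a in E0771, Osmr in NMuMG), where 2.61% and 5.01% of all genes were called. The median log2 fold change of the members, lean over obese, was 0.00 in E0771 and -0.09 in NMuMG, beside 0.00 over all genes in each.

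**Figure D2:**
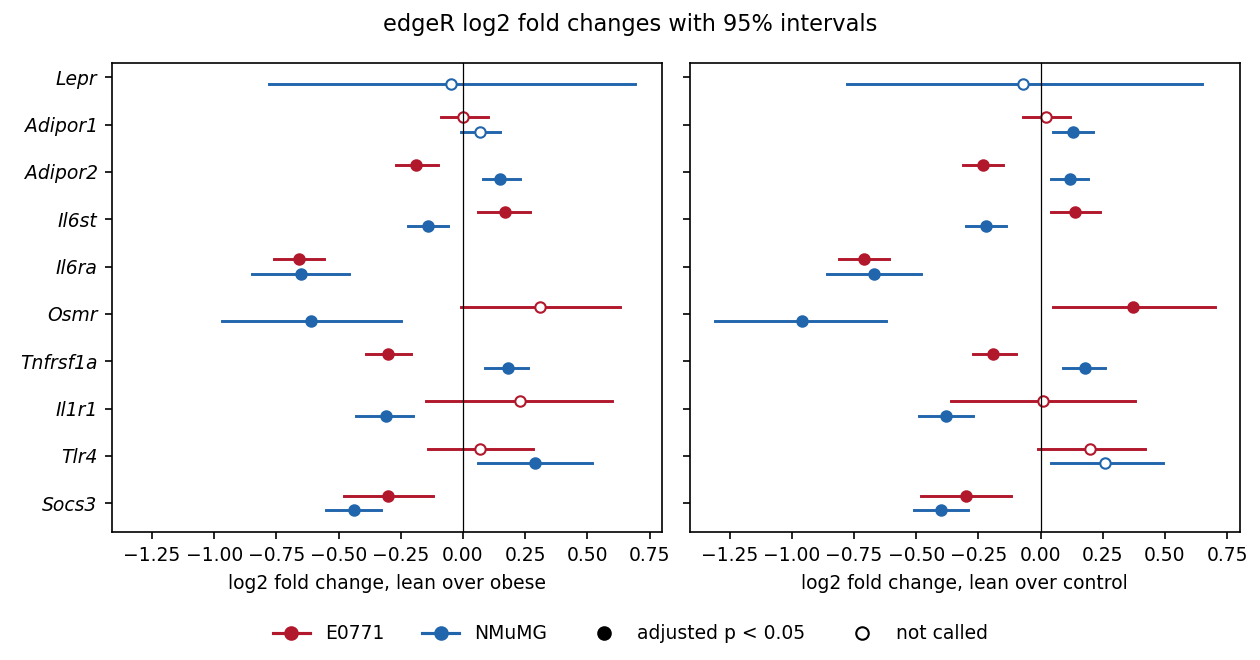
Log2 fold changes of lean over obese (left) and lean over control (right) with 95% intervals from edgeR, E0771 in red and NMuMG in blue, filled where the adjusted p was under 0.05. Il6ra and Socs3 lie below 0 in both lines, while Adipor2 and Tnfrsf1a lie below 0 in E0771 and above it in NMuMG.

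Lepr, the receptor of leptin, was barely detected in E0771, with 4, 8 and 2 counts in the control libraries, 2, 5 and 6 in the lean and 5, 4 and 2 in the obese libraries. It was too low there to be tested for an effect of medium. NMuMG libraries held 20, 26 and 15 counts in control, 25, 20 and 12 in lean and 25, 15 and 13 in obese medium, and the 3 media overlapped. Lepr was 4.28-fold higher in NMuMG than in E0771 in control medium (log2 2.10, SE 0.475), with no overlap between lines. It passed the filter on low counts in that fit of 18 libraries only through its NMuMG counts. The filter thus favoured this direction, and the test is not used as support for the difference. Without E0771 control replicate 2, the E0771 library with the most Lepr counts, the difference was 2.69 on the log2 scale, and leaving out other single libraries gave values down to 1.81. In NMuMG the lean over obese change was -0.05 with an interval from -0.78 to 0.69, so a change of less than about that size was not detectable at this depth. Leprot, a membrane protein that limits the leptin receptor at the cell surface, was at 24.22 ± 2.63 CPM in E0771 and 55.58 ± 1.56 CPM in NMuMG control libraries.

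Adipor1 and Adipor2, the adiponectin receptors, were expressed in both lines, and Adipor2 moved in opposite directions. Adipor1 read 116, 111.8 and 125.2 CPM in E0771 control, 121.2, 126.1 and 117.3 in lean and 117.9, 120.1 and 122.1 in obese libraries, all overlapping. In NMuMG it read 142.8, 150.5 and 144.2 CPM in control, 154.9, 155.5 and 168.1 in lean and 154.8, 146.6 and 154.8 in obese libraries, and the rise over control of 0.13 (SE 0.038, adjusted p = 0.00658) was lost without NMuMG control replicate 1 (0.11, adjusted p = 0.0544) or lean replicate 3 (0.09, adjusted p = 0.0759). Adipor2 fell in E0771, with lean libraries at 182.5, 181.2 and 173.4 CPM against 206.1, 204.9 and 194 in obese and 198.9, 213.3 and 207.4 in control libraries. No lean library reached an obese or control one, and the change was -0.19 over obese (SE 0.0403, adjusted p = 0.000399) and -0.23 over control (adjusted p = 2.79e-05). Adipor2 rose in NMuMG, from 170.4, 155.7 and 160 CPM in obese and 166.1, 164.7 and 167.7 in control to 173.9, 183.5 and 182.8 in lean libraries. Lean lay above all others, by 0.15 over obese (SE 0.0369, adjusted p = 0.00108) and 0.12 over control (adjusted p = 0.0112, or 0.0592 without NMuMG lean replicate 2). The ratio of Adipor1 to Adipor2 per kb was 0.679 ± 0.0491 in E0771 control, 0.709 ± 0.0355 in obese and 0.808 ± 0.0192 in lean libraries, and between 1.01 and 1.15 in every NMuMG library.

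Of the other genes of the adiponectin pathway, 5 of 16 tested rose and 7 fell in E0771 in lean over obese, with a median of -0.03, and 1 of 20 rose and 5 fell in NMuMG, with a median of -0.10. The share called was 75% in E0771, beside 52.7% of all genes (25.8% higher, 26.9% lower). In NMuMG it was 30%, beside 35% (17.6% higher, 17.4% lower). The all-gene median was 0.00 in each line. Cdh13 (T-cadherin, which binds adiponectin at the cell surface) fell in E0771 from 95.02 ± 5.62 CPM in obese to 60.35 ± 3.01 CPM in lean libraries (log2 -0.67, SE 0.0506, adjusted p = 1.21e-10), with control at 97.07 ± 1.72 CPM. In NMuMG Cdh13 was at 25.6 ± 1.6 and 24.45 ± 1.62 CPM (-0.06, adjusted p = 0.508), and the 2 changes differed (0.59, adjusted p = 2.18e-07). Paqr4, a relative of the adiponectin receptors, fell by 1.02 on the log2 scale in E0771, and Prkab2, a subunit of AMPK, rose by 0.61.

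Il6ra, the chain that binds IL-6 itself, had the largest fall of the 9 genes tested in E0771 for lean over obese. E0771 libraries read 105.9, 103.1 and 103.3 CPM in control, 99.02, 107.3 and 98.69 in obese and 65.39, 66.84 and 62.49 in lean medium. The lean libraries lay far below all others, 1.58-fold below obese (log2 -0.66, SE 0.0475, adjusted p = 5.52e-11) and 1.63-fold below control. NMuMG carried 7.81-fold less in control medium (log2 -2.97, adjusted p = 4.02e-35), at 14.63, 12.27 and 12.99 CPM in control and 13.11, 14.49 and 12.13 in obese, against 8.004, 8.316 and 8.873 in lean libraries. The fall there was 1.57-fold (log2 -0.65, SE 0.0949, adjusted p = 1.09e-06), and the difference between lines was -0.01 with an interval from -0.20 to 0.18. An antisense gene (Gm42809) overlaps 2.8% of the exon bases of Il6ra, and the strand setting of the counting is not given in the sources used here.

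Il6st, the signal-transducing chain gp130 that most IL-6 family receptors share, moved in opposite directions. In E0771 it read 103.8, 98.37 and 95.13 CPM in control, 99.17, 100.1 and 95.61 in obese and 108.4, 105.1 and 120.1 in lean libraries. Lean lay above the others, by 0.17 over obese (SE 0.05, adjusted p = 0.00745) and 0.14 over control (adjusted p = 0.0195). Without E0771 lean replicate 3, the highest library, these were 0.11 (adjusted p = 0.0506) and 0.08 (adjusted p = 0.126), and the change over control was also lost without control replicate 2 (adjusted p = 0.0788) or 3 (adjusted p = 0.0709). NMuMG read 121.5, 119.5 and 127.6 CPM in control and 115.2, 114.1 and 121 in obese, against 105.8, 105.4 and 105.5 in lean libraries. Every lean library was lower, by -0.14 over obese (SE 0.0387, adjusted p = 0.00356) and -0.22 over control (adjusted p = 1.98e-05). The ratio of Il6ra to Il6st per kb fell from 1.33 ± 0.0478 in obese to 0.753 ± 0.0767 in lean E0771 libraries, with no overlap, and was 0.146 ± 0.0172 and 0.102 ± 0.00545 in NMuMG.

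Osmr, a receptor chain for oncostatin M, was low in both lines. E0771 read 3.849, 3.411 and 2.722 CPM in control, 3.173, 3.774 and 3.622 in obese and 4.747, 3.717 and 4.755 in lean libraries, and lean replicate 2 overlapped both other groups. The change was 0.31 over obese (adjusted p = 0.0981, or 0.0416 without lean replicate 2) and 0.37 over control (SE 0.157, adjusted p = 0.0463). That last call was lost in the DESeq2 fit (adjusted p = 0.0657) and without control replicate 2 (0.0872) or 3 (0.176), lean replicate 1 (0.137) or 3 (0.13), or obese replicate 1 (0.0513) or 3 (0.0543). In NMuMG Osmr fell from 3.589, 3.93 and 3.726 CPM in control and 2.991, 3.225 and 2.608 in obese to 1.679, 2.118 and 1.976 in lean libraries, below all others. The falls were 1.53-fold over obese (log2 -0.61, SE 0.179, adjusted p = 0.00721) and 1.95-fold over control (log2 -0.96, SE 0.17, adjusted p = 2.15e-05).

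**Figure D3:**
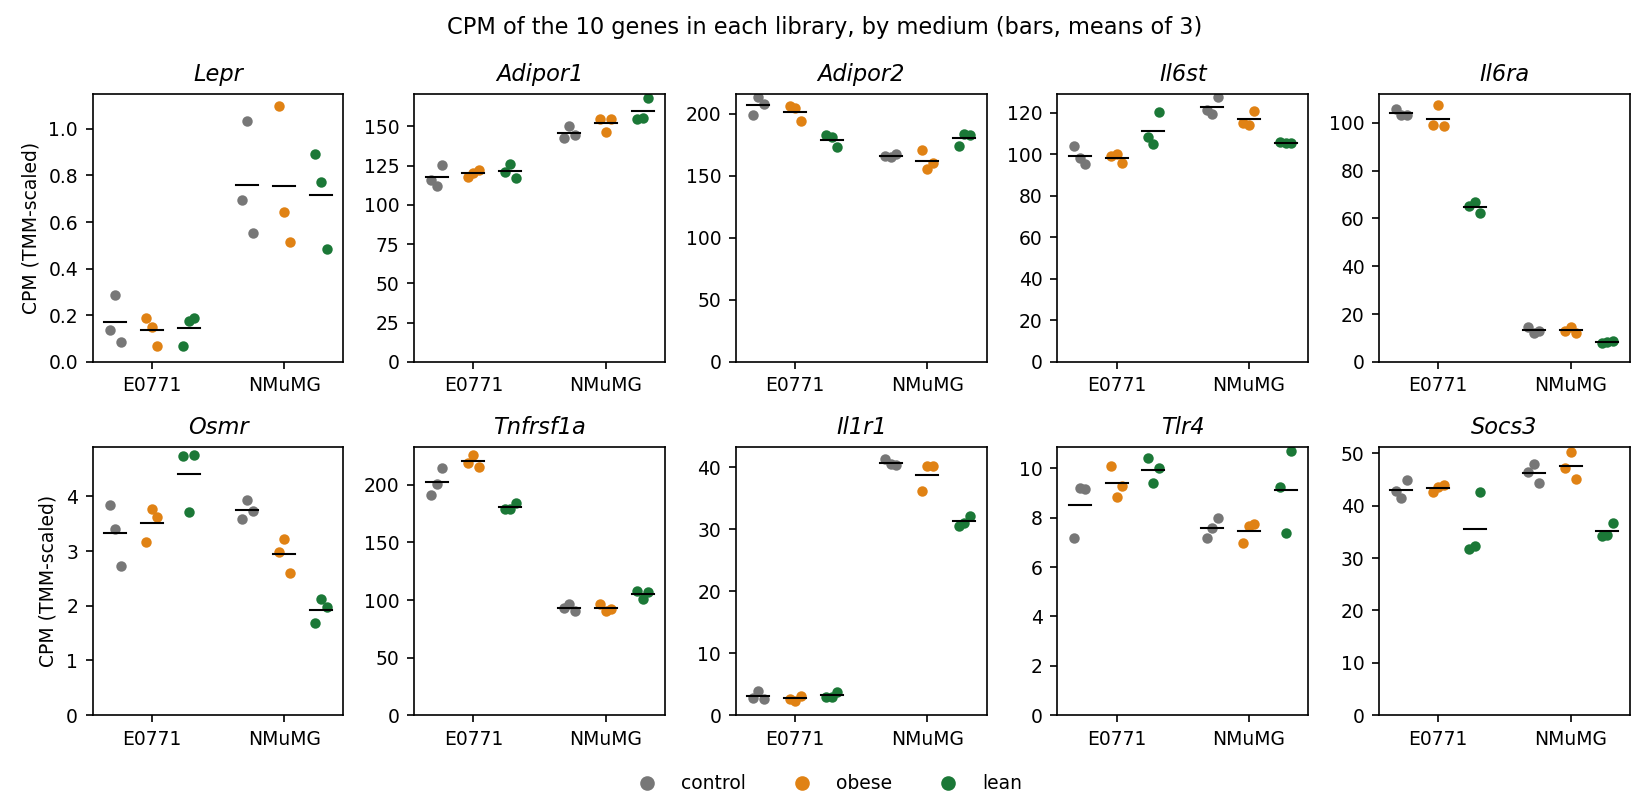
CPM of each of the 10 genes in every library, grouped by line and medium (control grey, obese orange, lean green), with means of 3 as bars and each vertical axis starting at 0. The lean points lie below the other media for Il6ra in both lines, and above them for Adipor2 in NMuMG but below them in E0771.

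Some partners of these chains differed between the lines and others overlapped. Il11ra1, the receptor chain for interleukin 11, which also pairs with Il6st, was at 7.356 ± 0.578 CPM in E0771 and 7.001 ± 0.756 CPM in NMuMG control libraries, which overlapped (log2 -0.07, adjusted p = 0.576). Lifr, the receptor chain for LIF that also pairs with Il6st, had 0 counts in each E0771 control library and 9.848 ± 1.39 CPM in NMuMG control, where it fell to 6.156 ± 0.264 CPM in lean medium (-0.43 over obese, SE 0.115, adjusted p = 0.00335). Lif, its ligand, was at 0.658 ± 0.0119 CPM in E0771 control and rose to 2.173 ± 0.148 CPM in lean medium (1.56 over obese, SE 0.239, adjusted p = 6.28e-06). In NMuMG Lif was at 35.15 ± 1.12 CPM in control, 42.63 ± 0.313 in obese and 47.85 ± 1.43 CPM in lean medium (0.17 over obese, adjusted p = 0.00754). Jak2, the kinase of the leptin receptor, was at 17.89 ± 0.626 CPM in E0771 and 136.5 ± 6 CPM in NMuMG control libraries. Il6 and Osm had at most 3 counts in any library of either line.

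Among other IL-6 family receptors and JAK kinases, 0 of 8 genes tested rose and 4 fell in E0771 in lean over obese, with a median of -0.29, and 2 of 8 rose and 1 fell in NMuMG, with a median of -0.02. Jak3, a kinase of cytokine receptors with the common gamma chain, fell in E0771 (-0.76, SE 0.0604, adjusted p = 2.54e-10). Among STATs and their feedback inhibitors 5 of 19 rose and 9 fell in E0771 (median -0.11), and 1 of 21 rose and 4 fell in NMuMG (median -0.01). Stat5a (-0.70) and the phosphatase gene Ptpn6 (-0.62) fell in E0771. Among STAT3 target genes 5 of 20 rose and 8 fell in E0771 (median -0.11), while 8 of 19 rose and 3 fell in NMuMG (median 0.06). Lcn2, an iron-binding secreted protein, fell in E0771 from 1.189 ± 0.254 CPM in obese to 0.591 ± 0.282 CPM in lean medium (adjusted p = 0.00882), and in NMuMG the immediate early gene Fos rose (0.77) and Birc5, an inhibitor of cell death needed for mitosis, fell (-0.72). All medians stood beside 0.00 over all genes. The shares called in E0771 were 50%, 73.7% and 65% for the IL-6 family, STAT and STAT3 target lists. All genes there stood at 52.7% (25.8% higher, 26.9% lower). In NMuMG the shares were 37.5%, 23.8% and 57.9%, beside 35% of all genes (17.6% higher, 17.4% lower).

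Socs3, the feedback inhibitor of these receptors, fell in lean secretome in both lines. E0771 read 42.86, 41.54 and 44.84 CPM in control, 42.73, 43.59 and 43.88 in obese and 31.71, 32.4 and 42.57 in lean libraries. Lean replicates 1 and 2 lay well below the rest while replicate 3 lay just under the obese range and inside the control range. The change was -0.30 over obese (SE 0.0851, adjusted p = 0.00746) and -0.30 over control (adjusted p = 0.00698), and without lean replicate 3 both were -0.45. NMuMG read 46.44, 47.96 and 44.34 CPM in control, 47.28, 50.35 and 45.2 in obese and 34.3, 34.34 and 36.78 in lean libraries, with no overlap. Socs3 fell there 1.35-fold over obese (log2 -0.44, SE 0.0542, adjusted p = 7.01e-08) and 1.32-fold over control. Its relative Socs1, an inhibitor of JAK kinases, rose in lean over obese in E0771 (0.54, adjusted p = 2.67e-05) and in NMuMG (0.65, SE 0.158, adjusted p = 0.00137).

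Tnfrsf1a, the main receptor of tumour necrosis factor, was the most abundant of the 10 genes per kb and moved in opposite directions. E0771 read 191.3, 200.4 and 215 CPM in control and 219, 226.3 and 215.9 in obese, against 179.3, 179.1 and 183.9 in lean libraries. Lean lay below both, by -0.30 against obese (SE 0.0413, adjusted p = 1.33e-06) and -0.19 against control (adjusted p = 0.000447). The obese over control difference of 0.11 did not pass (adjusted p = 0.161) but did without E0771 control replicate 3, the highest control library (0.17, adjusted p = 0.0227). NMuMG held 2.17-fold less in control medium (log2 -1.12, SE 0.0417), at 92.85, 96.19 and 90.42 CPM in control and 96.5, 90.35 and 92.5 in obese libraries, and rose to 107.6, 101 and 106.8 in lean medium. The rise was 0.18 over obese (SE 0.0409, adjusted p = 0.000757) and 0.18 over control (adjusted p = 0.000698), with no overlap. Tnfrsf1b, the other receptor of this ligand, was at 72.37 ± 5.09 CPM in E0771 and 29.37 ± 1.93 CPM in NMuMG control libraries and did not pass for lean over obese in either line (0.00 and -0.04). In the TNF receptor pathway 6 of 26 genes rose and 7 fell in E0771 in lean over obese (median 0.00). That is 50%, beside 52.7% of all genes (25.8% higher, 26.9% lower). In NMuMG 9 of 26 rose and 2 fell (median 0.04), 42.3% beside 35% of all genes (17.6% higher, 17.4% lower). Both all-gene medians were 0.00. Among those that rose in NMuMG was Tnfaip3, an NF-kB-induced inhibitor of the pathway. It went from 59.36 ± 4.75 CPM in obese to 87.2 ± 2.29 CPM in lean medium (0.56, adjusted p = 2.82e-11). Ikbkg, the regulatory subunit of the IKK kinase complex, also rose (0.61, adjusted p = 0.00508).

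Il1r1, the signalling receptor of interleukin 1, was 13-fold higher in NMuMG than in E0771 (log2 3.70, SE 0.1, adjusted p = 5.49e-31). E0771 read 2.844, 3.913 and 2.554 CPM in control, 2.682, 2.302 and 3.11 in obese and 2.911, 2.911 and 3.729 in lean libraries, all overlapping, and lean over obese was 0.23 with an interval from -0.15 to 0.60. In NMuMG it fell from 41.36, 40.49 and 40.4 CPM in control and 36.11, 40.21 and 40.15 in obese to 30.59, 30.99 and 32.18 in lean libraries, below all others. The changes were -0.31 over obese (SE 0.0558, adjusted p = 3.13e-05) and -0.38 over control (adjusted p = 6.65e-07). Il1rap, the accessory chain without which Il1r1 does not signal, had the reverse distribution, at 38.44 ± 0.199 CPM in E0771 and 2.462 ± 0.258 CPM in NMuMG control libraries (log2 -3.96, adjusted p = 2.62e-33). The ratio of Il1r1 to Il1rap per kb was 0.144 ± 0.0334 in E0771 and 29.8 ± 3.18 in NMuMG control libraries. Il1rap rose in lean over obese in E0771 (0.30, adjusted p = 0.000115) and fell in NMuMG (-0.84, SE 0.207, adjusted p = 0.00144), and these changes differed (-1.16, adjusted p = 1.36e-06). Il1rn, the soluble antagonist of the receptor, had 0 counts in E0771 control libraries and 18.06 ± 1.1 CPM in NMuMG.

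Tlr4, the receptor of lipopolysaccharide that saturated fatty acids have also been linked to, was low in both lines, with -0.16 for NMuMG over E0771 in control medium (interval -0.39 to 0.07, adjusted p = 0.189, or -0.28 and 0.0355 without E0771 control replicate 1). E0771 read 7.179, 9.191 and 9.17 CPM in control, 10.09, 8.832 and 9.295 in obese and 10.43, 9.398 and 10.01 in lean libraries, with lean and obese overlapping. NMuMG read 7.177, 7.583 and 8.006 CPM in control, 6.994, 7.654 and 7.745 in obese and 9.255, 7.392 and 10.69 in lean libraries, where lean replicate 2 lay among the others. Lean over obese was 0.29 (SE 0.114, adjusted p = 0.0472), a call lost on leaving out any NMuMG library other than lean replicate 2 and reduced to 0.16 (adjusted p = 0.341) without lean replicate 3. Over control the 0.26 did not pass (adjusted p = 0.0594) but did without lean replicate 2 (0.39, adjusted p = 0.00615) or obese replicate 1 (0.27, adjusted p = 0.0499). Ly96, the co-receptor MD-2, was at 2.635 ± 0.33 and 3.643 ± 0.393 CPM in E0771 and NMuMG control libraries, whereas Cd14, which hands lipopolysaccharide to Tlr4, was at 0.747 ± 0.214 and 185.3 ± 9.14 CPM (log2 7.95, SE 0.091).

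In the IL-1 and TLR pathway 10 of 21 genes rose and 4 fell in E0771 in lean over obese (median 0.19), and 9 of 23 rose and 2 fell in NMuMG (median 0.16), beside 0.00 over all genes in each. The share called was 66.7% in E0771, beside 52.7% of all genes (25.8% higher, 26.9% lower). In NMuMG it was 47.8%, beside 35% (17.6% higher, 17.4% lower). Myd88, the adaptor shared by Il1r1 and Tlr4, rose in E0771 from 24.79 ± 1.21 to 35.45 ± 3.47 CPM (0.50, SE 0.07, adjusted p = 1.48e-06), and in NMuMG the change was 0.14 (adjusted p = 0.0864). Lbp, a protein that carries lipopolysaccharide to CD14, fell in E0771 (-0.64, SE 0.106, adjusted p = 1.67e-05), and Peli2, a ubiquitin ligase of this pathway, fell in NMuMG (-0.56, SE 0.0833, adjusted p = 2.73e-06). Il33, an alarmin of this family, was at 167.4 ± 3.9 CPM in NMuMG control, with at most 12 counts in any E0771 library. Il1b had 0 counts in all 18 libraries.

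**Figure D4:**
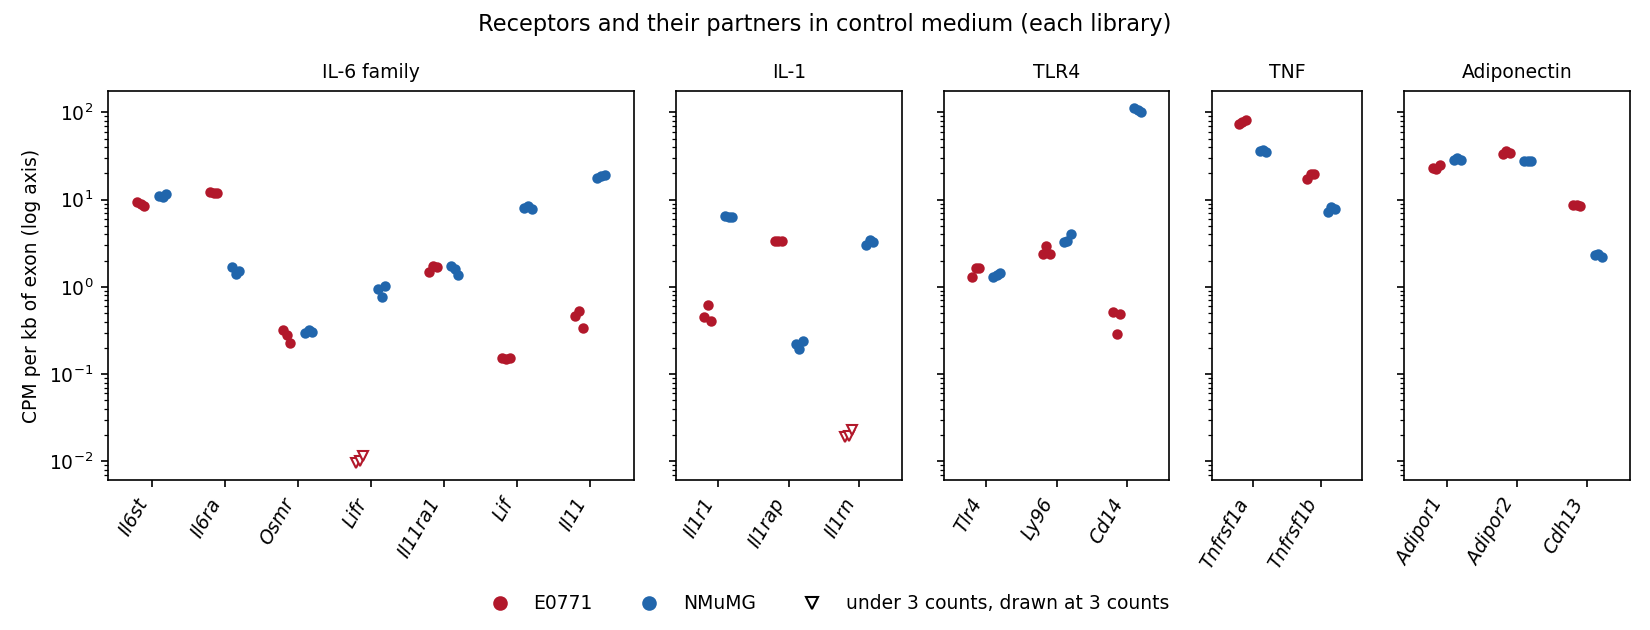
CPM per kb of exon (log axis) of the receptors and their partners in control medium, 1 point per library, with open triangles drawn at the level of 3 counts for libraries under 3 counts. Il1r1 and Il1rap are high in opposite lines, Cd14 and Lif are high in NMuMG, and Lifr and Il1rn are at the floor in E0771. The partners were chosen after their values were seen.

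The effect of lean over obese secretome differed between the lines for 5 of the 10 genes by the interaction test (2 higher and 3 lower in NMuMG), where 34.2% of all 16529 genes differed (15.5% higher, 18.8% lower). These were Tnfrsf1a (0.46, SE 0.0587, adjusted p = 3.79e-08), Adipor2 (0.32, adjusted p = 9.3e-06), Il6st (-0.32, adjusted p = 6.3e-05), Osmr (-0.94, adjusted p = 0.00132) and Il1r1 (-0.55, adjusted p = 0.00643, or 0.0608 without E0771 lean replicate 3). For lean over control, which shares the lean libraries, 5 genes differed as well (2 higher, 3 lower), where 34.5% of all genes did (15.1% higher, 19.4% lower). For obese over control 0 of 10 differed by edgeR's test or DESeq2, with 1 (Tnfrsf1a) under an unadjusted p of 0.05, where 1.69% of all genes did. The differences for Socs3 (-0.15, interval -0.37 to 0.06) and Tlr4 (0.20, interval -0.12 to 0.52) did not pass. Lepr, which entered this fit only through its NMuMG counts, did not pass in any of these comparisons.

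Across the 18 libraries, with each line centred on its own mean, some of the 10 genes varied together: Pearson's r was 0.849 for Il6ra with Socs3, 0.819 for Il6st with Osmr and 0.767 for Adipor2 with Tnfrsf1a, and -0.776 for Il6st with Tnfrsf1a. The libraries share 3 media, so these values describe the medium groups and carry no test. Of 9278 candidate genes, the closest to Il6ra were Efcab11 (0.976) and Rnf220 (0.972), to Socs3 Hexim1 (0.949) and Ccdc163 (0.908), and to Tnfrsf1a Gpx4 (0.958), the glutathione peroxidase that removes lipid peroxides, and Ifitm2 (0.944). Gpx4 changed by -0.33 in E0771 and 0.19 in NMuMG in lean over obese. The closest to Adipor2 were Tkfc (0.923) and Nsdhl (0.914), an enzyme of cholesterol synthesis, to Il6st Stxbp5 (0.922) and Kansl3 (0.916), and to Osmr Twsg1 (0.924) and Camkk1 (0.914). Likeness was lower for Tlr4 (Mynn 0.889, Htatip2 0.835), Adipor1 (Preb 0.842, Ttll1 0.826) and Il1r1 (Txnip 0.796, Ppp1r12a 0.773).

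Genes of other cytokine and adipokine receptors included 5 of 24 that rose and 7 that fell in E0771 in lean over obese (median 0.01), and 8 of 27 that rose and 4 that fell in NMuMG (median 0.08). The TNF-family receptors Tnfrsf12a (0.97), Cd40 (0.82) and Tnfrsf10b (0.80) rose in E0771, and in NMuMG the TGF-beta receptor gene Tgfbr2 rose (0.66) while Tgfbr3 fell (-0.74). Among ligands 4 of 12 rose and 3 fell in E0771 (median -0.07), C1qtnf1, a relative of adiponectin, falling from 20.57 ± 1.86 to 9.332 ± 1.9 CPM, and 5 of 13 rose and 1 fell in NMuMG (median 0.17), Hmgb1, a nuclear protein that can act as a TLR4 ligand, changing by -0.51. Of the sheddases that release receptor ectodomains and their regulators, 1 of 7 rose and 2 fell in E0771 (median -0.04), with Rhbdf2, a cofactor of the sheddase ADAM17, at -0.55, and 3 of 8 rose and 1 fell in NMuMG (median 0.02), with its inhibitor gene Timp3 at 0.66. The shares called for other receptors, ligands and sheddases were 50%, 58.3% and 42.9% in E0771, beside 52.7% of all genes (25.8% higher, 26.9% lower). In NMuMG they were 44.4%, 46.2% and 50%, beside 35% (17.6% higher, 17.4% lower). The all-gene median was 0.00 in each line.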

How the data were processed

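Poly(A) RNA libraries were prepared with a directional kit, per the labels' protocols. The authors deposited raw read counts per Ensembl gene ID, and cutadapt 1.16, STAR 2.7.9a, featureCounts 1.6.3 and build GRCm39 are listed per the submitters' processing notes. The annotation release and strand setting are not given in the sources used here. Human libraries were not used here. Symbols and exon lengths came from GENCODE M21, which named 52073 of 56980 IDs (99.68% of counts), and promoters came from RefSeq (9 of the 10 genes matched).

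Each line was fitted alone (9 libraries, 13813 genes in E0771 and 15014 in NMuMG) with edgeR 4.0.16 in R 4.3.3, using filterByExpr (minimum count 10), TMM factors (0.949 to 1.05) and the robust quasi-likelihood F test. Differences between lines came from 1 fit of 18 libraries. P-values were Benjamini-Hochberg adjusted over all genes of a contrast and called under 0.05. SE is the log2 fold change divided by the root of F, and intervals are 95%. A count of 3 was the floor. Chi-square values of replicate pairs, divided by their degrees of freedom, were 2.22 to 7.71, above counting error. Alternatives were other scalings, no filter, DESeq2 1.42.0, a replicate block, only the 2 groups compared and leaving out each library. The pipeline was tested on simulated data for lean over obese. Of 100 genes changed 1.5-fold it called 73 in E0771 and 72 in NMuMG, and of 100 changed 2-fold it called 86 in each. False calls made up 6.47% and 7.06% of calls, and changes smaller than 1.5-fold were not simulated.

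The 10 genes and the 9 pathway lists (215 of 216 genes matched) were chosen with earlier results of these data known. All 10 are named. From each list and line up to 3 genes are named that were called in lean over obese with an absolute log2 fold change of at least 0.5 and a mean of at least 1 CPM, with partner genes added after their values were seen. A gene that this rule also names is not reported here. The 2 genes most like each member had a mean log2 CPM (prior count 2) of at least 2 in each line.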

Additional observations from a re-analysis of the deposited data

Results flagged for a closer look

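The effect of lean secretome on 5 of the genes differed between NMuMG and E0771 by a test of the difference itself (edgeR's interaction contrast, Benjamini-Hochberg adjusted, NMuMG minus E0771), where 34.2% of all 16529 genes differed for lean over obese and 34.5% for lean over control. For lean over obese the differences were 0.32 for Adipor2 (SE 0.0555, adjusted p = 9.3e-06), 0.46 for Tnfrsf1a (SE 0.0587, adjusted p = 3.79e-08), -0.32 for Il6st (SE 0.0631, adjusted p = 6.3e-05), -0.94 for Osmr (SE 0.233, adjusted p = 0.00132) and -0.55 for Il1r1 (SE 0.163, adjusted p = 0.00643). For lean over control, which shares the lean libraries, they were 0.32 for Adipor2 (SE 0.0553, adjusted p = 9.78e-06), 0.34 for Tnfrsf1a (SE 0.0585, adjusted p = 1.2e-05), -0.38 for Il6st (SE 0.0629, adjusted p = 4.16e-06), -1.36 for Osmr (SE 0.226, adjusted p = 5.71e-06) and -0.42 for Il1r1 (SE 0.159, adjusted p = 0.0374). The Il1r1 difference over control was lost without E0771 control replicate 1 (-0.35, adjusted p = 0.129) or 3 (-0.31, adjusted p = 0.163), E0771 lean replicate 3 (-0.28, adjusted p = 0.225), NMuMG control replicate 1 (-0.41, adjusted p = 0.0608) or any NMuMG lean replicate (adjusted p = 0.0622, 0.0541 and 0.051). Il1r1 was near 3 CPM in E0771, and the media of the lines differed in insulin and glucose, so line and medium cannot be told apart.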

How the results depend on the processing

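Under the alternatives, none of the called differences of the 10 genes changed sign. Over all single-gene values under an alternative, 1659 kept direction and side of the threshold, 35 lost a call, 6 gained one, and 72 changed sign, the last all of differences not called and none passing under the alternative. Calls lost are given beside each gene above, and further for Osmr in E0771 lean over control with the replicate block (0.37, adjusted p = 0.0551) and with only the 2 groups compared (0.38, adjusted p = 0.0504), and for Tlr4 in NMuMG lean over obese with no filter (adjusted p = 0.0511), DESeq2 (0.0879) and only the 2 groups (0.0698). The number of genes called ranged, leaving out 1 library at a time, from 4 to 6 in E0771 lean over obese, 4 to 6 in lean over control and 0 to 1 in obese over control (1 without E0771 control replicate 3), and from 7 to 8, 7 to 9 and 0 to 0 in NMuMG. For the differences between lines it was 4 to 5, 4 to 5 and 0 to 0, and between lines in control medium 7 to 8. Scaling by library totals moved the median of all genes between lines from 0.077 to -0.034, with Adipor1 and Il6st at 0.20 each, Socs3 at -0.01 and Tlr4 at -0.27 (adjusted p = 0.0279).

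Sign changes outside leaving out libraries were Socs3 in E0771 obese over control (0 with the replicate block and 0 with only the 2 groups compared), Tnfrsf1a in NMuMG obese over control (0 with no filter), Socs3 between lines in control medium (0.10, and -0.01 with library totals) and the Il6ra difference in lean over obese (0.01 with DESeq2 size factors, library totals, no filter and DESeq2). Leaving out 1 library, values crossed 0 in E0771 for Adipor1 (lean over obese -0.02 to 0.03, lean over control -0.02 to 0.08, obese over control -0.02 to 0.08), Il1r1 (lean over control -0.12 to 0.21), and in obese over control Il6st (-0.04 to 0.02), Osmr (-0.04 to 0.19) and Socs3 (-0.03 to 0.04). In NMuMG they did so for Lepr (lean over obese -0.26 to 0.32, lean over control -0.26 to 0.20, obese over control -0.39 to 0.25) and in obese over control for Il6ra (-0.08 to 0.06), Socs3 (0 to 0.08), Tlr4 (-0.07 to 0.02) and Tnfrsf1a (-0.03 to 0.02). Among differences between lines they did so in lean over obese for Il6ra (-0.07 to 0.06) and Lepr (-0.48 to 0.21), in lean over control for Il6ra (-0.04 to 0.09), Lepr (-0.41 to 0.46), Socs3 (-0.20 to 0.03) and Tlr4 (-0.07 to 0.16), and in obese over control for Adipor1 (-0.01 to 0.07), Adipor2 (-0.04 to 0.03), Il1r1 (-0.07 to 0.26), Il6ra (-0.04 to 0.10), Lepr (-0.25 to 0.65) and Socs3 (-0.01 to 0.07). The cause was not tested.

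Replicate numbers did not pair the libraries: deviations of same-numbered libraries correlated from -0.0947 to 0.11 in E0771 and -0.0285 to 0.025 in NMuMG (9 pairs each), and the best match in another group had the same number in 6 and 7 of 18 cases. With the replicate block 5 members were called in E0771 lean over obese, 5 in lean over control, and 8 and 8 in NMuMG. Depth limits Lepr most, at 2 to 8 counts per E0771 library.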
